A study of Mus musculus with 9 samples.

Results

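Kinesins were examined in 3 strains of HC11 cells, an established mouse mammary epithelial line from mid-pregnancy BALB/c mice that carries mutated p53. Kinesin genes were taken as those whose symbol begins with Kif and a digit, on probesets annotated to 1 gene symbol only. This rule gave 38 symbols on 44 probesets, out of 19937 symbols and 34760 probesets on the array, and no measured value entered it. For genes with several probesets, the probeset with the highest mean over all arrays was used. One of the 38, Kif4-ps, is annotated as a pseudogene (mean log2 level 3.70) and was set aside, which left 37 motor genes. By known function 11 were classed as mitotic kinesins, 13 as transport kinesins and 13 as other kinesins. Kif2a and Kif2b, relatives of the mitotic Kif2c, were placed among the other kinesins. The classes were chosen with earlier results of these data known.

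Each strain stably overexpressed a form of Mkl1, a coactivator of serum response factor (SRF) now named Mrtfa, fused at its C-terminus to red fluorescent protein (RFP). HC11-FL expressed the full length protein and served as the control. HC11-mutB1 expressed Mkl1 with alanine substitutions in the B1 region, the SRF-interaction site, and HC11-ΔSAP expressed Mkl1 without its SAP domain, a putative DNA-binding domain. Each strain was 1 transfected population, selected with Geneticin and sorted by flow cytometry, and all cultures had been kept for 48 h in RPMI with 0.03% FCS and no EGF. There were 3 arrays per strain, and a strain with empty vector was not analysed here. Because the labels do not say whether the 3 samples of a strain came from separate cultures, p-values measure the spread between these samples only.

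Kinesins are motor proteins that walk along or dismantle microtubules by hydrolysing ATP. The mitotic members build the spindle, move chromosomes and organise the midzone that guides cytokinesis, and many of their transcripts accumulate in G2 and M phase of the cell cycle. The transport members carry vesicles, organelles and ciliary cargo throughout the cell's life, mostly towards microtubule plus ends. Epithelial cells use both groups, the first when they divide and the second for sorting membrane proteins and building cilia.

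Values are log2 levels after robust multi-array averaging (RMA), in which a difference of 1 is a 2-fold change. A gene is said to have risen or fallen where limma gave a p of at most 0.01 after Benjamini-Hochberg adjustment across the 34760 probesets, and the mean level over the 9 arrays was at least 4. All 3 filters of the study add a change of at least 2-fold. Of the 37 motors, 33 reached the minimum level. Kif2b (mean 3.32), Kif27 (3.31), Kif17 (3.84) and Kif5a (3.99) did not, while Kif1a lay just inside it at 4.09. Levels of different probesets are not comparable, so each gene is compared with itself across strains.

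The mitotic kinesins parted from the transport kinesins in HC11-ΔSAP. Relative to HC11-FL, 10 of 11 mitotic kinesins fell in HC11-ΔSAP, each at least 2-fold (1.51% of all probesets above the minimum did so). The median log2 fold change of all 11 was -1.31 (range -1.65 to -0.64). None of the 11 transport kinesins above the expression minimum changed 2-fold, where 3.01% of all probesets did by all 3 filters. Of these 11, 6 rose, against 11.9% of all probesets, and the median of all 11 was 0.25 (range -0.41 to 0.80). In HC11-mutB1, 6 of 11 mitotic kinesins rose less than 2-fold and none fell (class median 0.51), where 11.9% of all probesets rose. Of the 11 transport kinesins, 5 also rose there and 1 fell (class median 0.29), where 8.32% of all probesets fell. Outside both classes, Kif26b fell 6.33-fold in HC11-ΔSAP, and Kif21b fell 2.78-fold in HC11-mutB1.

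Array medians lay between 4.53 and 4.6, and arrays correlated at r = 0.994 to 0.995 within strains and 0.985 to 0.989 between them over all probesets. The Mrtfa probeset, which does not tell introduced from endogenous Mkl1 transcripts, averaged 9.95 in HC11-FL, with means of 9.83 for HC11-mutB1 and 9.47 for HC11-ΔSAP, the latter 1.39-fold below HC11-FL (limma adjusted p = 0.0018). In the deposited values 45.2% of probesets hold exactly the same value in at least 2 arrays, and this holds for 19 kinesins, 14 of them within a strain, so that small SDs may understate the spread. All 8 epithelial markers exceeded the minimum level, and their summed linear signal was 9420 to 9750 for HC11-FL, 9410 to 9670 for HC11-mutB1 and 7930 to 8070 for HC11-ΔSAP. All 6 fibroblast markers were also above the minimum, at summed signals of 322 to 356, 344 to 374 and 371 to 385 in the same order. Of 4 leukocyte markers 2 were below it, Ptprc (mean 3.49) and Itgam (2.96), and the summed signals were 251 to 260, 200 to 213 and 325 to 333. All 3 endothelial markers were below it, at summed signals of 34.1 to 35.3, 31.6 to 32.6 and 31.7 to 33.4. Such sums weigh the brightest probeset of a list most, as Cd68 (mean 7.73) among the leukocyte markers.

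Most promoters of the mitotic kinesins held a short element that the rule did not use. Many G2/M genes carry a cell cycle genes homology region (CHR) near their start, with the core TTTGAA, often downstream of CCAAT boxes. RefSeq promoter windows of build GRCm38.p6, reaching from 250 bases before to 50 after each annotated start, were found for 31 of 37 kinesin genes. Kif20a, Kif5a, Kif5b, Kif13b, Kif19a and Kif21b had no window in that table. On either strand, TTTGAA occurred in 9 of 10 mitotic kinesin genes with a window, in 1 of 10 transport kinesin genes (Kif1a) and in 2 of 11 other kinesin genes (Kif26b and Kif27). Among all 27025 genes with windows of this length 20.2% held it. Kif18a was the mitotic kinesin without it. The CHR variant TTCGAA was found among the kinesins only in Kif24, of the other class, against 1.8% of all genes. CCAAT, on either strand, was in 6, 3 and 5 genes of the 3 classes, against 41.1% of all genes. A match is a run of letters and not a known binding site, and no test between the classes was made.

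The stretches from 75 bases before to 25 after the start are shown for the mitotic kinesins in which TTTGAA lay near the start, for Kif26b as the non-mitotic member that fell most, and for Kif3b as a transport kinesin for contrast. All are written 5′ to 3′ on the gene's own strand. Capitals mark TTTGAA or its reverse complement TTCAAA, and CCAAT or its reverse complement ATTGG.
Kif11: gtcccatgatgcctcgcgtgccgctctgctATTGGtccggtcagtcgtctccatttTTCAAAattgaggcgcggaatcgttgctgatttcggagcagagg
Kif15: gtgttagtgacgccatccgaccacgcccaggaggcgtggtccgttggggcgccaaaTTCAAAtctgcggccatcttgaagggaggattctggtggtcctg
Kif22: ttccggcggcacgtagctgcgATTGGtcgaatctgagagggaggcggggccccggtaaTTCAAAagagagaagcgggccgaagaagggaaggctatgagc
Kif18b: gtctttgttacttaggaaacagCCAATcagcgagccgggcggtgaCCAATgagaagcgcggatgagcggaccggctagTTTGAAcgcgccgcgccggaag
Kif23: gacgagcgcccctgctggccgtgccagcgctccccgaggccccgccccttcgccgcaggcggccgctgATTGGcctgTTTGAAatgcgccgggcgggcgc
Kif20b: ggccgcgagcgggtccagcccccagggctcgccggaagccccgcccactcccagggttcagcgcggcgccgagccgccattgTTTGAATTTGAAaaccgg
Kif4: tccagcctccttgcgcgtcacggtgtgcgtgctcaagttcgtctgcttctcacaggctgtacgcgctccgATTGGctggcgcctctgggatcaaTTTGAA
Kif26b: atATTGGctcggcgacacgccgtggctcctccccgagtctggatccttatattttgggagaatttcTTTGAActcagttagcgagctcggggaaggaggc
Kif3b: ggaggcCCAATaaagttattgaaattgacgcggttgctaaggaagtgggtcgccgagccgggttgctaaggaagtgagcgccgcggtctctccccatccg

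In GRCm38.p6 coordinates these stretches are Kif11 on chr19:37376307-37376406 (plus strand), Kif15 on chr9:122951006-122951105 (plus strand), Kif22 on chr7:127042396-127042495 (minus strand), Kif18b on chr11:102925100-102925199 (minus strand), Kif23 on chr9:61946775-61946874 (minus strand). The others are Kif20b on chr19:34922283-34922382 (plus strand), Kif4 on chrX:100625990-100626089 (plus strand), Kif26b on chr1:178529050-178529149 (plus strand) and Kif3b on chr2:153291341-153291440 (plus strand). Counted from the start, the element began at base -19 in both Kif11 and Kif15, at -17 in Kif22 and at -9 in Kif26b. It began 3 to 20 bases downstream of the start in Kif23, Kif18b, Kif20b and Kif4, and Kif20b had 2 copies in tandem. In Kif2c and Kif14 it lay further upstream, at -103 and -228. The stretch of Kif3b held a CCAAT box and no TTTGAA. The CArG box, the SRF recognition element, was found by its consensus in the window of Kif20b only among the kinesins with a window, and in 1.81% of all genes. The E2F site TTTGGCGC was present in Kif15 and Kif18a, against 0.585% of all genes, and its variant TTTCCCGC in no kinesin and in 1.24% of all genes.

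Among the spindle motors, Kif11, the plus-end motor of kinesin-5 that pushes the spindle poles apart, read 7.07, 7.22 and 7.30 in HC11-FL. It read 8.02, 8.18 and 8.11 in HC11-mutB1, against 5.65, 5.41 and 5.80 in HC11-ΔSAP. The strains were fully separated, with HC11-mutB1 on top and HC11-ΔSAP at the bottom. Kif11 fell 2.98-fold in HC11-ΔSAP (log2 -1.58 ± 0.10 SE, n = 3 per strain, limma adjusted p = 2.5e-05) and rose 1.88-fold in HC11-mutB1 (0.91 ± 0.10, adjusted p = 5.0e-04). Kif15, the kinesin-12 that can maintain bipolar spindles beside Kif11, was 5.95, 6.15 and 5.96 in HC11-FL and 4.78, 4.87 and 4.89 in HC11-ΔSAP, 2.26-fold lower (limma adjusted p = 1.1e-04). In HC11-mutB1 it was 6.14, 6.39 and 6.54, and this range overlapped that of HC11-FL.

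The microtubule depolymerising kinesins shorten microtubule ends and thereby correct kinetochore attachments and position chromosomes. Kif2c, the kinesin-13 at centromeres, read 7.20 in all 3 HC11-FL arrays, 7.54, 7.66 and 7.65 in HC11-mutB1, against 5.73, 5.38 and 5.81 in HC11-ΔSAP. Its fall in HC11-ΔSAP was 2.95-fold (limma adjusted p = 2.6e-05), while the higher level in HC11-mutB1 missed the threshold (0.41 on the log2 scale, adjusted p = 0.026). The kinesin-8 motor Kif18b, which restrains astral microtubules, was 6.94, 6.89 and 6.94 in HC11-FL, 7.57, 7.50 and 7.43 in HC11-mutB1, against 5.60, 5.66 and 5.97 in HC11-ΔSAP. All HC11-ΔSAP arrays were again the lowest, by 2.27-fold on average (limma adjusted p = 6.1e-05). Kif18a, the kinesin-8 that dampens chromosome oscillations, was the mitotic member whose difference between HC11-ΔSAP and HC11-FL missed the threshold. It read 4.91, 5.44 and 5.26 in HC11-FL, 6.01, 6.10 and 6.32 in HC11-mutB1, against 4.25, 4.82 and 4.62 in HC11-ΔSAP. The ranges of HC11-FL and HC11-ΔSAP lay apart, but its difference of -0.64 (95% interval -1.06 to -0.23) had a limma adjusted p of 0.04.

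The chromokinesins bind chromosome arms and push them towards the spindle equator. Kif4, which also restricts the length of midzone microtubules, was 6.50, 6.50 and 6.54 in HC11-FL, 7.01, 7.36 and 7.29 in HC11-mutB1, against 5.14, 4.66 and 4.90 in HC11-ΔSAP. The fall in HC11-ΔSAP was 3.06-fold (log2 -1.61 ± 0.13 SE, n = 3, limma adjusted p = 6.7e-05). Kif22, a chromokinesin of the kinesin-10 family, was 6.45, 6.46 and 6.45 in HC11-FL, 6.77, 6.92 and 6.81 in HC11-mutB1, against 5.55, 4.98 and 5.48 in HC11-ΔSAP. One HC11-ΔSAP array was clearly below the other 2. Its fall of 2.17-fold (limma adjusted p = 6.3e-04) came to a log2 difference of -0.94, under 2-fold, without HC11-ΔSAP replicate 2.

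The cytokinesis kinesins act at the central spindle and midbody. Kif23, the motor of the centralspindlin complex, was 6.92, 6.99 and 7.01 in HC11-FL, 7.46, 7.43 and 7.58 in HC11-mutB1, against 5.24, 5.38 and 5.66 in HC11-ΔSAP. Kif20a, which brings Aurora B to the midzone, was 7.15, 7.13 and 7.11 in HC11-FL, 7.94, 7.89 and 7.88 in HC11-mutB1, against 6.11, 6.01 and 6.10 in HC11-ΔSAP. Kif20a showed the smallest SE of the class (0.04), with a fall of 2.08-fold in HC11-ΔSAP (limma adjusted p = 2.3e-06) and a rise of 1.70-fold in HC11-mutB1 (adjusted p = 1.2e-05). Kif20b, its relative needed for abscission, was 7.16, 7.16 and 7.21 in HC11-FL, 7.48, 7.76 and 7.65 in HC11-mutB1, against 5.38, 5.48 and 5.71 in HC11-ΔSAP. The fall of Kif20b, 3.15-fold, was the largest of the mitotic class (limma adjusted p = 1.5e-05), and Kif23 fell 2.93-fold (adjusted p = 2.2e-05). Kif14, which recruits citron kinase to the midbody, was 5.53, 5.54 and 5.68 in HC11-FL and 4.48, 4.21 and 4.12 in HC11-ΔSAP, 2.48-fold lower (limma adjusted p = 3.3e-04). In HC11-mutB1 it was 5.53, 5.94 and 6.03, overlapping HC11-FL. A second Kif14 probeset, with a mean of 2.86, lay below the minimum level and did not follow it.

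**Figure D1:**
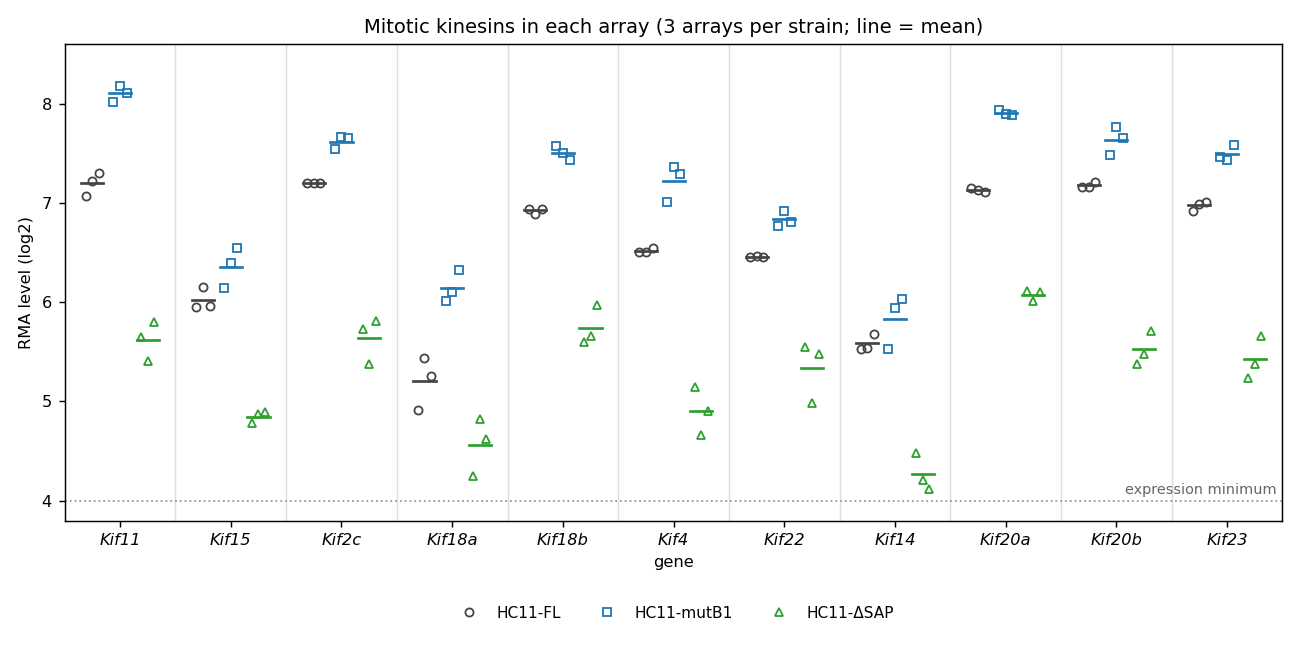
RMA level (log2) of the 11 mitotic kinesins in each of the 9 arrays; symbols are arrays, short lines are strain means and the dotted line is the expression minimum of 4. For every gene the 3 HC11-ΔSAP arrays lie below all HC11-FL and HC11-mutB1 arrays. How many of all probesets separate in this way was not counted, so this is a description only.

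As a class, 10 of 11 mitotic kinesins fell in HC11-ΔSAP relative to HC11-FL, where 10.1% of all 20286 probesets above the minimum did so. With the 2-fold minimum added the count was again 10, against 1.51% of all such probesets. The median of these probesets shifted by -0.013. Per array, the median deviation of the class from its HC11-FL means was -1.32, -1.47 and -1.32 in HC11-ΔSAP and 0.48, 0.57 and 0.52 in HC11-mutB1. Without the fold minimum the count was 10 when any 1 array was left out, and with it 9 without HC11-ΔSAP replicate 2, where Kif22 missed 2-fold. In bulk RNA, fewer cells in G2 and M phase and less of these transcripts per cell cannot be told apart.

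In HC11-mutB1 the mitotic kinesins were higher than in HC11-FL for 11 of 11 genes by mean. So were 9 of 11 transport kinesins, while the median of all probesets above the minimum was -0.02. By the test 6 mitotic kinesins rose (Kif11, Kif18a, Kif18b, Kif4, Kif20a and Kif23), against 11.9% of all probesets. None reached 2-fold, against 1.65% of all probesets higher by all 3 filters. The count of 6 depended on single arrays. It was 2 without HC11-FL replicate 1, HC11-FL replicate 3 or HC11-mutB1 replicate 2, 3 without HC11-FL replicate 2 or HC11-mutB1 replicates 1 or 3, and 5, 6 and 7 without HC11-ΔSAP replicates 3, 1 and 2. The rises of Kif11 and Kif20a passed in all 9 of these fits. Without HC11-FL replicate 2, Kif18a passed 2-fold (log2 1.06).

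The mutants were also compared directly, a contrast that does not use the HC11-FL means. HC11-ΔSAP had the lower level for all 11 mitotic kinesins, each by at least 2-fold. Of all probesets 1.70% were lower by this rule, and 8.45% with no fold minimum. The median difference was -1.83 (range -2.49 to -1.50). Kif11 differed most (5.60-fold, limma adjusted p = 2.9e-06), then Kif4 (4.99-fold) and Kif20b (4.30-fold). Kif18a, not called between HC11-ΔSAP and HC11-FL, differed by -1.58 on the log2 scale here (adjusted p = 5.5e-04). Both comparisons with HC11-FL share its 3 arrays, so their values for a gene are not independent.

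Transport kinesins moved little and mostly upwards in both mutants. Of the 11 above the minimum, 6 rose and 1 fell in HC11-ΔSAP, against 11.9% and 10.1% of all probesets. In HC11-mutB1 5 rose and 1 fell, against 11.9% and 8.32%. No change reached 2-fold in any of the 3 comparisons. By all 3 filters 3.01% of all probesets did in HC11-ΔSAP against HC11-FL, and 2.86% in HC11-mutB1 and between the mutants. The class median relative to the HC11-FL means was 0.28, 0.21 and 0.24 in the HC11-ΔSAP arrays and 0.28, 0.28 and 0.31 in the HC11-mutB1 arrays. The HC11-FL arrays lay between -0.03 and 0.01. Their own means had been subtracted, so this range does not measure the spread between arrays.

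Kif16b, the kinesin-3 motor that carries early endosomes to the cell periphery, read 8.22, 8.29 and 8.22 in HC11-FL, 8.67, 8.71 and 8.64 in HC11-mutB1, against 9.04, 9.06 and 9.05 in HC11-ΔSAP. The 3 strains did not overlap, and Kif16b had the largest rise of the class in HC11-ΔSAP (1.74-fold, limma adjusted p = 7.1e-06) and a smaller one in HC11-mutB1 (1.34-fold, adjusted p = 2.2e-04). Kif3b, a motor subunit of heterotrimeric kinesin-2 that moves ciliary cargo, read 8.20, 8.18 and 8.17 in HC11-FL, 8.78, 8.75 and 8.74 in HC11-mutB1, against 8.93, 8.93 and 8.90 in HC11-ΔSAP. It was higher in every array of both mutants, by 1.67-fold in HC11-ΔSAP (limma adjusted p = 6.2e-06) and 1.49-fold in HC11-mutB1 (adjusted p = 2.3e-05). Its partner subunit Kif3a was 0.38 higher in HC11-ΔSAP on the log2 scale (limma adjusted p = 0.0068) and 0.29 higher in HC11-mutB1 (adjusted p = 0.025, not passing). The third family member, Kif3c, an alternative partner of Kif3a, was 0.41 below HC11-FL in HC11-ΔSAP (difference -0.41, adjusted p = 0.0068) and near it in HC11-mutB1 (0.03).

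Kif5c, a kinesin-1 heavy chain best known from neurons, differed between the mutants. It read 6.65, 6.70 and 6.72 in HC11-FL, 7.64, 7.51 and 7.46 in HC11-mutB1, against 6.59, 6.61 and 6.83 in HC11-ΔSAP. Only the HC11-mutB1 arrays stood apart, 1.80-fold above HC11-FL (limma adjusted p = 1.4e-04). In the direct contrast Kif5c was 1.81-fold below HC11-mutB1 in HC11-ΔSAP (adjusted p = 1.5e-04). Kif5b, the kinesin-1 heavy chain present in most cells, was not called in either mutant, with 95% intervals of -0.05 to 0.20 for both differences from HC11-FL.

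Among the remaining kinesin-3 motors, which carry vesicles, Kif1b was higher by 0.44 in HC11-ΔSAP and by 0.41 in HC11-mutB1 (limma adjusted p = 0.001 and 0.0017), and Kif1c by 0.25 and 0.38 (adjusted p = 0.0053 and 6.8e-04). A second, dimmer Kif1c probeset with a mean of 8.04 was not called in either mutant, at 0.09 and 0.29 (adjusted p = 0.65 and 0.08). With the dimmer probeset of each gene, 5 transport kinesins rose in HC11-ΔSAP and the class median was 0.09 in place of 0.25. Kif13b was called in opposite directions, 0.30 higher in HC11-ΔSAP (adjusted p = 0.0044) and at -0.26 in HC11-mutB1 (adjusted p = 0.0092). The direct contrast of Kif13b between the mutants was 0.56 (adjusted p = 2.0e-04). Kif13a and Kif1a were not called in any comparison. The count of 6 rising transport kinesins in HC11-ΔSAP was 3 without HC11-FL replicate 1, HC11-FL replicate 3 or HC11-ΔSAP replicate 3, 4 without HC11-FL replicate 2, HC11-mutB1 replicate 2 or HC11-ΔSAP replicates 1 or 2, and 5 without HC11-mutB1 replicates 1 or 3. The rises of Kif16b, Kif3b and Kif1b passed in all 9 of these fits, and the fall of Kif3c was kept only without HC11-ΔSAP replicate 1. The call of Kif13b in HC11-mutB1 was kept only without HC11-ΔSAP replicate 2.

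**Figure D2:**
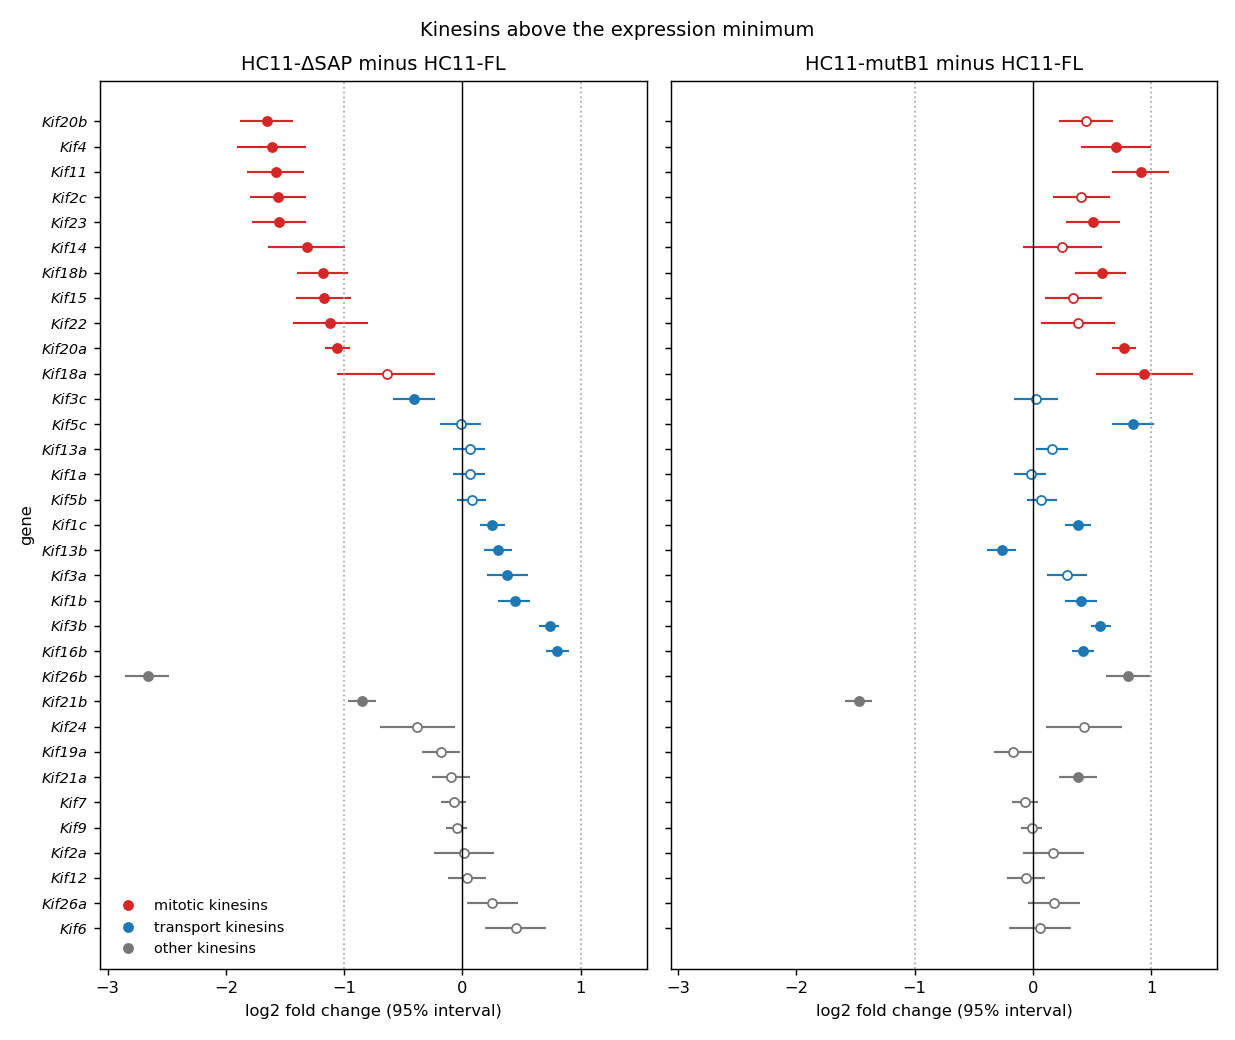
log2 fold change with its 95% interval for the 33 kinesins above the expression minimum, in HC11-ΔSAP (left) and HC11-mutB1 (right) relative to HC11-FL; filled points passed the adjusted p of 0.01, open points did not, and dotted lines mark 2-fold. On the left the mitotic kinesins lie between -1.65 and -0.64 and the transport kinesins between -0.41 and 0.80.

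Kif26b had the largest change of all kinesins. It is a kinesin-11 protein that binds microtubules without known motility and is known from kidney development and Wnt5a signalling. Kif26b read 7.32, 7.28 and 7.45 in HC11-FL, 8.20, 8.12 and 8.14 in HC11-mutB1, against 4.85, 4.57 and 4.65 in HC11-ΔSAP. The 3 strains lay far apart, in the same order as for the mitotic kinesins. It fell 6.33-fold in HC11-ΔSAP (log2 -2.66 ± 0.08 SE, n = 3, limma adjusted p = 4.9e-07), rose 1.75-fold in HC11-mutB1 (adjusted p = 2.2e-04) and differed 11.1-fold between the mutants (adjusted p = 1.9e-07). A second Kif26b probeset gave means of 7.22, 7.98 and 4.89 and a fall of 5.03-fold in HC11-ΔSAP (adjusted p = 1.5e-05). The gene lies on chr1:178529125-178932857 (GRCm38.p6). Its relative Kif26a was not called, at 0.25 in HC11-ΔSAP (95% interval 0.04 to 0.47). Without HC11-FL replicate 1, Kif26a was called higher in HC11-ΔSAP (0.37, limma adjusted p = 0.0026) and in HC11-mutB1 (0.3, adjusted p = 0.0074).

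Kif21b fell in both mutants, and further in HC11-mutB1. This kinesin-4 protein pauses microtubule growth and is best known from neurons and lymphocytes. It read 5.57, 5.61 and 5.59 in HC11-FL, 4.16, 4.16 and 4.02 in HC11-mutB1, against 4.76, 4.69 and 4.76 in HC11-ΔSAP. HC11-mutB1 was the lowest strain, 2.78-fold below HC11-FL (log2 -1.47 ± 0.05 SE, n = 3, limma adjusted p = 8.3e-07) and close to the expression minimum. HC11-ΔSAP was 1.80-fold below HC11-FL (adjusted p = 1.5e-05) and 1.54-fold above HC11-mutB1 (adjusted p = 9.2e-05). Kif21b was the single kinesin that passed all 3 filters in HC11-mutB1, against 1.21% of all probesets lower there. Its relative Kif21a was 0.38 higher in HC11-mutB1 (limma adjusted p = 0.0055) and not called in HC11-ΔSAP (-0.10). When single arrays were left out, the call of Kif21a in HC11-mutB1 was kept only without HC11-mutB1 replicate 1 or HC11-ΔSAP replicate 1.

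Kif24, a centriolar kinesin that restrains ciliogenesis in cycling cells, read 5.27, 5.14 and 5.26 in HC11-FL, 5.57, 5.66 and 5.74 in HC11-mutB1, against 4.56, 4.80 and 5.17 in HC11-ΔSAP. Its order followed the mitotic kinesins, but the HC11-ΔSAP and HC11-FL ranges overlapped, and neither difference from HC11-FL passed (limma adjusted p = 0.11 and 0.07). Without HC11-ΔSAP replicate 3 it was called lower in HC11-ΔSAP than HC11-FL (log2 -0.54, adjusted p = 0.0064). Between the mutants it was 1.75-fold lower in HC11-ΔSAP (adjusted p = 0.005), a call that passed only without HC11-ΔSAP replicate 1 or 3 when single arrays were left out. Kif2a, Kif6, Kif7, Kif9, Kif12 and Kif19a were not called in any comparison, with log2 differences from HC11-FL between -0.18 and 0.45. Kif2a is a kinesin-13 relative of Kif2c that is not confined to mitosis. Its difference from HC11-FL in HC11-ΔSAP was 0.01 (limma adjusted p = 0.96). The share of the mitotic class that fell therefore depends on its placement.

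**Figure D3:**
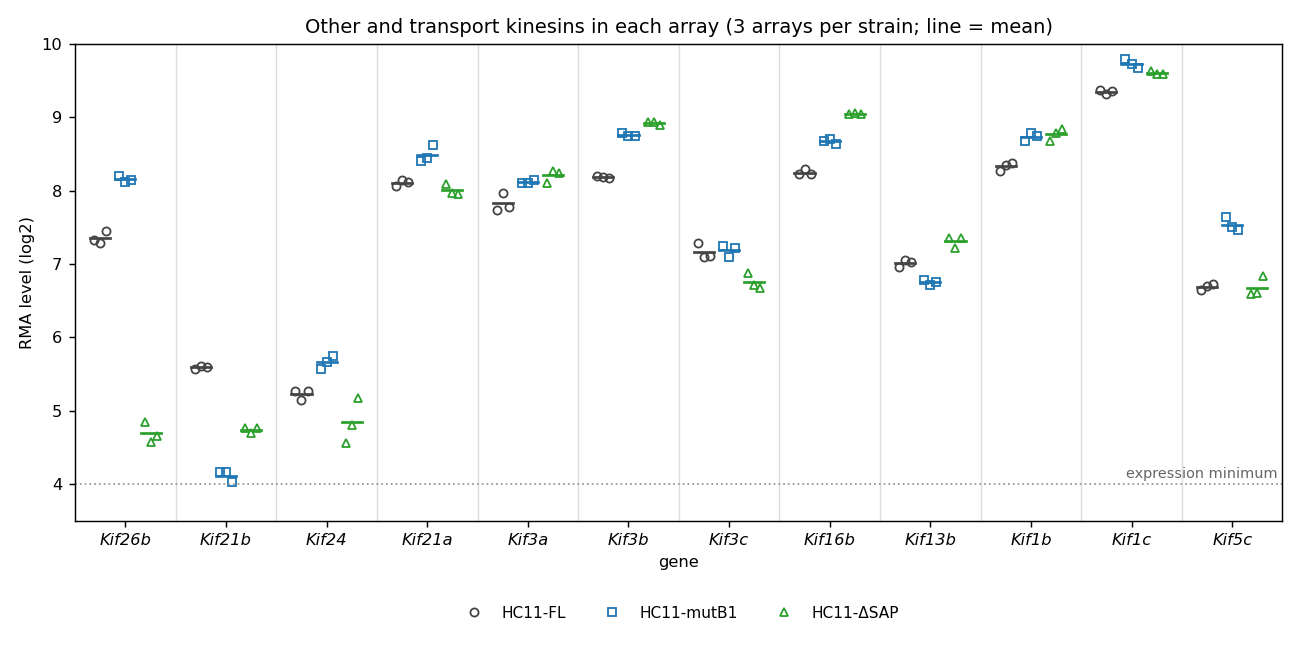
RMA level (log2) of 12 kinesins outside the mitotic class, all those called in at least 1 comparison, in each of the 9 arrays; symbols are arrays, short lines are strain means and the dotted line is the expression minimum of 4. Kif26b is lowest in HC11-ΔSAP and Kif21b in HC11-mutB1, while Kif3b and Kif16b are higher in all arrays of both mutants than in HC11-FL.

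Over all 33 kinesins, 13 fell and 6 rose in HC11-ΔSAP against HC11-FL, together 19, where 22% of all probesets changed in either direction. Of these, 11 passed all 3 filters (3.01% of all probesets did, 1.49% higher), all lower, namely the 10 mitotic kinesins and Kif26b. In HC11-mutB1 2 fell and 13 rose, against 8.32% and 11.9% of all probesets. The count of 13 was 8 without HC11-FL replicate 3 or without HC11-mutB1 replicate 2. Between the mutants 16 were lower and 3 higher in HC11-ΔSAP, against 8.45% and 7.25% of all probesets. There 12 passed all 3 filters, all lower, and none was higher, against 1.16% of all probesets.

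Genes whose products work with these motors were taken as further lists. Of 20 partners of the mitotic kinesins at spindle, kinetochore and midzone, 18 fell and 1 rose in HC11-ΔSAP relative to HC11-FL. Of these, 14 fell at least 2-fold, and the median log2 fold change of all 20 was -1.23. Of all probesets above the minimum, 10.1% fell, 11.9% rose and 1.51% fell at least 2-fold. The 3 largest changes were those of Prc1 (-1.73, limma adjusted p = 5.1e-06), the midzone crosslinker that binds Kif4, Cep55 (-1.58, adjusted p = 1.7e-06), an abscission scaffold, and Plk1 (-1.53, adjusted p = 3.3e-06), the mitotic kinase. Mapre1, a microtubule plus-end binding protein used throughout the cell cycle, was the partner that rose (0.65, adjusted p = 8.8e-05). In HC11-mutB1 16 of 20 rose and none fell, with a median of 0.51, where 11.9% of all probesets rose and 8.32% fell. Of kinesins that carry other names, 4 were measured. Cenpe, the kinetochore kinesin-7, fell by 1.89 on the log2 scale in HC11-ΔSAP (adjusted p = 1.3e-06) and rose by 0.47 in HC11-mutB1 (adjusted p = 0.0024). Stard9 rose by 0.68 in HC11-ΔSAP (adjusted p = 5.2e-05), and Kifc3 and Kifc2 were not called there (0.19 and 0.03).

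Partners of transport showed no shift of that size. Of 15 genes listed as cargo adaptors and light chains above the minimum, 2 fell and 2 rose in HC11-ΔSAP (median 0.02). In HC11-mutB1 1 fell and 1 rose (median 0.08). The 13.3% of these genes called in each direction in HC11-ΔSAP lay near the 10.1% and 11.9% of all probesets, and the 6.67% in each direction in HC11-mutB1 stood beside 8.32% and 11.9%. The 3 largest differences in HC11-ΔSAP were those of Klc1, a kinesin-1 light chain (-0.61, limma adjusted p = 2.4e-05), Plekhm2, which links kinesin-1 to lysosomes (0.42, adjusted p = 0.0036), and Rab3gap1 (-0.37, adjusted p = 3.8e-04). Rab3gap1 belongs to a Rab3 GTPase-activating complex and is not itself a cargo adaptor or light chain. It was also the listed gene that fell in HC11-mutB1 (-0.4). Of 18 subunits and regulators of cytoplasmic dynein and dynactin, the minus-end motor that opposes kinesins, 1 fell and 6 rose in HC11-ΔSAP (median 0.12) and 9 rose and none fell in HC11-mutB1 (median 0.29). In percent this was 5.56% falling and 33.3% rising in HC11-ΔSAP, against 10.1% and 11.9% of all probesets, and 50% rising in HC11-mutB1, against 11.9%. The 3 largest were Dync1li2 (0.72, adjusted p = 3.4e-05), Dynll1 (-0.58, adjusted p = 0.014, not passing) and Dynlrb1 (0.47, adjusted p = 8.0e-05). None of these transport partners passed all 3 filters in any comparison, where 2.86% to 3.01% of all probesets did.

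**Figure D4:**
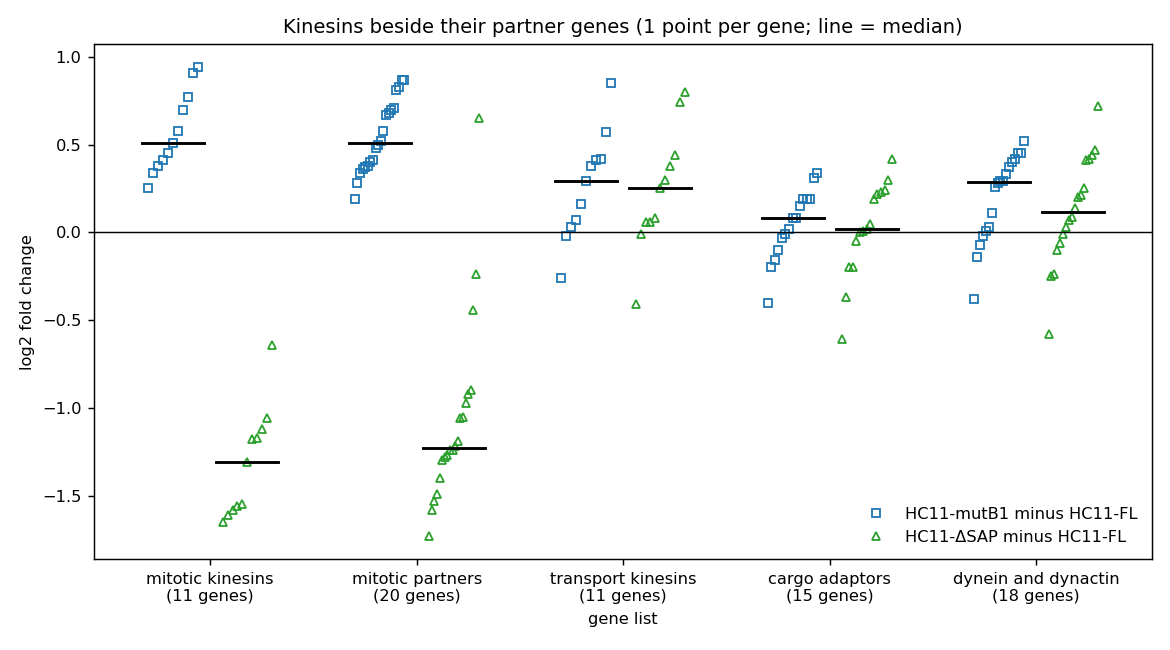
log2 fold change relative to HC11-FL of mitotic and transport kinesins and of their partner genes above the expression minimum; each symbol is 1 gene and the black lines are medians. In HC11-ΔSAP the medians are -1.31 and -1.23 for the mitotic kinesins and their partners, and 0.25, 0.02 and 0.12 for transport kinesins, cargo adaptors, and dynein and dynactin.

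General proliferation markers moved with the mitotic kinesins. Of 5 measured, Top2a (-1.68), Ccna2 (-1.59), Mki67 (-1.47) and Cdk1 (-1.24) fell in HC11-ΔSAP, while Pcna did not pass the test (0.01, limma adjusted p = 0.98). The same 4 rose in HC11-mutB1, by 0.71, 0.96, 0.99 and 0.37 on the log2 scale. Of all probesets above the minimum, 10.1% fell and 11.9% rose in HC11-ΔSAP, and 8.32% fell and 11.9% rose in HC11-mutB1. These shares also apply to the marker counts below. The summed linear signal of the 5 was 3210 to 3450 for HC11-FL, 4310 to 5540 for HC11-mutB1 and 2180 to 2560 for HC11-ΔSAP, with no overlap between strains. Pcna, the brightest of the 5 (mean log2 level 10.97), weighs most in this sum, and its own strain ranges overlapped. The part that the share of cycling cells has in the kinesin differences was not tested. The epithelial sum was also lower in HC11-ΔSAP, where 6 of 8 epithelial markers fell and 2 rose, and 4 fell and 3 rose in HC11-mutB1. Single markers moved further than the sum, as Krt5 was 3.73-fold lower in HC11-ΔSAP and 2.23-fold higher in HC11-mutB1, and Cldn7 and Cldn4 were 3.94-fold and 3.22-fold lower in HC11-mutB1. The leukocyte sum was higher in HC11-ΔSAP, where Cd68 was the 1 marker of that list that rose (0.45), and the fibroblast sum was higher there with Dcn as the 1 that rose (1.81), while Pdgfra fell (-0.42). The part of these markers in the kinesin differences was not tested either.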

How the data were processed

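Total RNA of 9 samples (3 strains, 3 each) was hybridised to Affymetrix Mouse Gene 1.0 ST arrays. The authors deposited log2 expression values for 34760 probesets after RMA (affy, R 2.10.0, Bioconductor 2.4), which corrects background, equalises the arrays' distributions and summarises probes. Scanner files were not used here. Probesets were named from the array's annotation (21640 with 1 symbol, 1321 with several, 11799 with none listed), and genes from several-symbol probesets were not named. Differences were fitted with limma 3.58.1 in R 4.3.3 on all 9 arrays, with 1 mean per strain, 6 residual and 1.93 prior degrees of freedom, and Benjamini-Hochberg adjustment over all probesets. The study's filters (adjusted p of at most 0.01, mean log2 level of at least 4, change of at least 2-fold) were kept.

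Kinesins with an adjusted p of at most 0.01 and at least 1.5-fold in any comparison are given array by array, others by ranges and counts, and each partner list by its 3 largest differences in HC11-ΔSAP. Kinesin classes, gene lists and motifs were chosen with earlier results of these data known, so counts over them are descriptions. Motifs were searched on both strands of RefSeq windows of GRCm38.p6. The alternatives were other thresholds, expression minimums and adjustment sets, fits of 2 strains only, a replicate block, median centring, limma-trend, the dimmer probeset, and leaving out each array. The number of arrays limits the precision.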

Additional observations from a re-analysis of the deposited data

How the results depend on the processing

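Counts of kinesins passing all 3 filters were 1 lower and 0 higher in HC11-mutB1 against HC11-FL, 11 and 0 in HC11-ΔSAP against HC11-FL, and 12 and 0 between the mutants. With an expression minimum of 6 the count lower in HC11-mutB1 was 0, since Kif21b lies under that level, and 9 were lower in HC11-ΔSAP against HC11-FL and 9 between the mutants, with 8 mitotic kinesins falling in place of 10. Without a fold minimum, 2 were lower and 13 higher in HC11-mutB1, and 6 and 3 were higher in HC11-ΔSAP against HC11-FL and against HC11-mutB1. With 1 array left out, the counts ranged from 1 to 1 and 0 to 1 in HC11-mutB1, 10 to 11 and 0 to 0 in HC11-ΔSAP against HC11-FL, and 12 to 12 and 0 to 0 between the mutants. Whether the replicate numbers pair the samples was not settled. Correlations of same-numbered arrays' deviations ran from -0.11 to 0.26, and those of replicate 1 were all positive (0.11 to 0.26). Differently numbered arrays were not compared for reference. With the replicate number as a block the 6 counts were again 1, 0, 11, 0, 12 and 0, and the mitotic kinesins rising in HC11-mutB1 were 4 in place of 6, while 11 in place of 10 fell in HC11-ΔSAP, as Kif18a then passed (adjusted p = 0.0091, against 0.02 to 0.12 without 1 array). Of 69 single-gene differences, 62 kept their side of the threshold under the block, 57 with only the compared strains and 66 after median centring. None of the 69 reversed under the alternatives fitted to the same probeset. With the dimmer probeset of each gene, 9 of 11 mitotic kinesins fell in HC11-ΔSAP, as the second Kif14 probeset lies below the minimum level. On that probeset the Kif14 difference in HC11-mutB1 was -0.07 in place of 0.25, neither called.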
